A study of Caenorhabditis elegans with 2 samples.

Results

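Of the 9 genes for alpha, beta and gamma tubulin followed here, 4 carried a reproducible CEH-27 summit, against 12.6% of all protein-coding genes. These were tba-1, tba-2, tbb-1 and tbb-2, 4 of the 5 genes classed as broadly used. The 3 tubulin genes of touch and ciliated neurons, mec-7, mec-12 and tbb-4, carried none. Nor did the gamma tubulin gene tbg-1, the remaining broadly used gene, or tba-4, which was placed in neither class. With only 3 neuronal genes, their lack of a summit cannot be set apart from that share of all genes. Of the 5 reproducible summits, 3 had the tubulin gene's own 5' end as the nearest of any protein-coding gene. Of the rest, 1 lay beside cox-5B and 1 nearer to rib-2. The 9 genes were taken by symbol from the Ensembl annotation, out of 19973 nuclear protein-coding genes in all. They comprised the alpha tubulin genes tba-1, tba-2, tba-4 and mec-12, the beta tubulin genes tbb-1, tbb-2, tbb-4 and mec-7, and tbg-1. Each was examined over a gene window from 2000 bp upstream of its outermost annotated 5' end to its 3' end.

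CEH-27 belongs to the NK-2 class of homeodomain transcription factors, and its occupancy was measured by ChIP-seq, the sequencing of DNA that an antibody pulls down with the protein. All worms were OP139, a Caenorhabditis elegans strain with the integrated fosmid transgene wgIs139, in which ceh-27 is fused to TY1, EGFP and 3xFLAG, together with unc-119(+), in an unc-119(ed3) background. Whole young adults of pooled sex were collected at 73 hours after synchronisation by L1 starvation following bleaching. The description names an anti-GFP antibody and was followed here, while the antibody field of the labels reads ceh-27. The 2 biological replicates, numbered 1 and 4, formed the only group, so occupancy is that of a tagged transgene product averaged over all cells. The replicate lists and the pooled list held 30000 regions each, capped and including background regions, and 2328 regions formed the reproducible set, identical to the 2328 strongest pooled regions. Signal, the authors' own value for each region, ran from 25.6 to 1263 in the pooled list and from 91.7 in the reproducible set. The scale of signal is not stated and differs between lists, so values were compared by rank within a list. Read depth is unknown.

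Microtubules are polymers of alpha and beta tubulin dimers, and gamma tubulin, encoded by tbg-1, nucleates them at centrosomes and elsewhere. In C. elegans, tba-1, tba-2, tbb-1 and tbb-2 supply tubulin to most cells, including the spindles of the early embryo. The touch receptor neurons sense gentle touch and hold unusually wide microtubules, for which mec-12 gives the alpha and mec-7 the beta subunit. The beta tubulin TBB-4 is a component of the axonemes of ciliated sensory neurons.

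The sequences around summits upstream of the tubulin genes on chromosome III are shown because at tbb-1 and tbb-2 they carry the reproducible occupancy. That of tbg-1 ranked below the set, at 2691 in the pooled list, with rank 726 in replicate 1 but 21579 in replicate 4. The tbg-1 summit lay nearer to the gene rpac-19 and the tbb-1 summit nearer to rib-2. Each sequence is the 101 bp centred on a pooled summit, read 5' to 3' on the strand of the tubulin gene. It was taken from the RefSeq copy of WBcel235, the assembly also named ce11. Capitals mark AAGTG, the core recognised by NK-2 class homeodomains, or its complement CACTT. The tbb-1 window is chrIII:10742640-10742740 on the minus strand, the tbb-2 window chrIII:4018209-4018309 on the minus strand, and the tbg-1 window chrIII:9629969-9630069 on the minus strand. None of the 3 windows touched an exon of a protein-coding gene.
tbb-1: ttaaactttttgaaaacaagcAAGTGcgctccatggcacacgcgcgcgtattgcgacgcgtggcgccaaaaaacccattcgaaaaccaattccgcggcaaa
tbb-2: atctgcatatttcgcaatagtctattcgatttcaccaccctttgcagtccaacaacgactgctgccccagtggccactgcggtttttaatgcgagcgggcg
tbg-1: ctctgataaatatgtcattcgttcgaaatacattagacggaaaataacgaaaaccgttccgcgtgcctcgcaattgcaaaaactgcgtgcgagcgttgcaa
The tbb-1 window held 1 AAGTG match, and the tbb-2 and tbg-1 windows held none. Their G and C content was 50.5%, 51.5% and 43.6%, against a median of 49.5% over all reproducible summits.

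With 4 of 9 genes called by a reproducible summit in the gene window, the tubulin genes stood beside a background of 12.6% of all protein-coding genes. Every one of the 4 was also called in the promoter, from 1000 bp upstream to 200 bp downstream of a 5' end, where the background was 8.46%. Of the 9 gene windows, 8 were between 3500 and 5000 bp long, and among all genes with windows of that length 9.94% were called. The exception was mec-12, with a window of 9661 bp. The genes were chosen with earlier results of these data known, so these counts were given no test. The 4 called genes held 5 reproducible summits, all upstream of the gene and none within it.

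**Figure D1:**
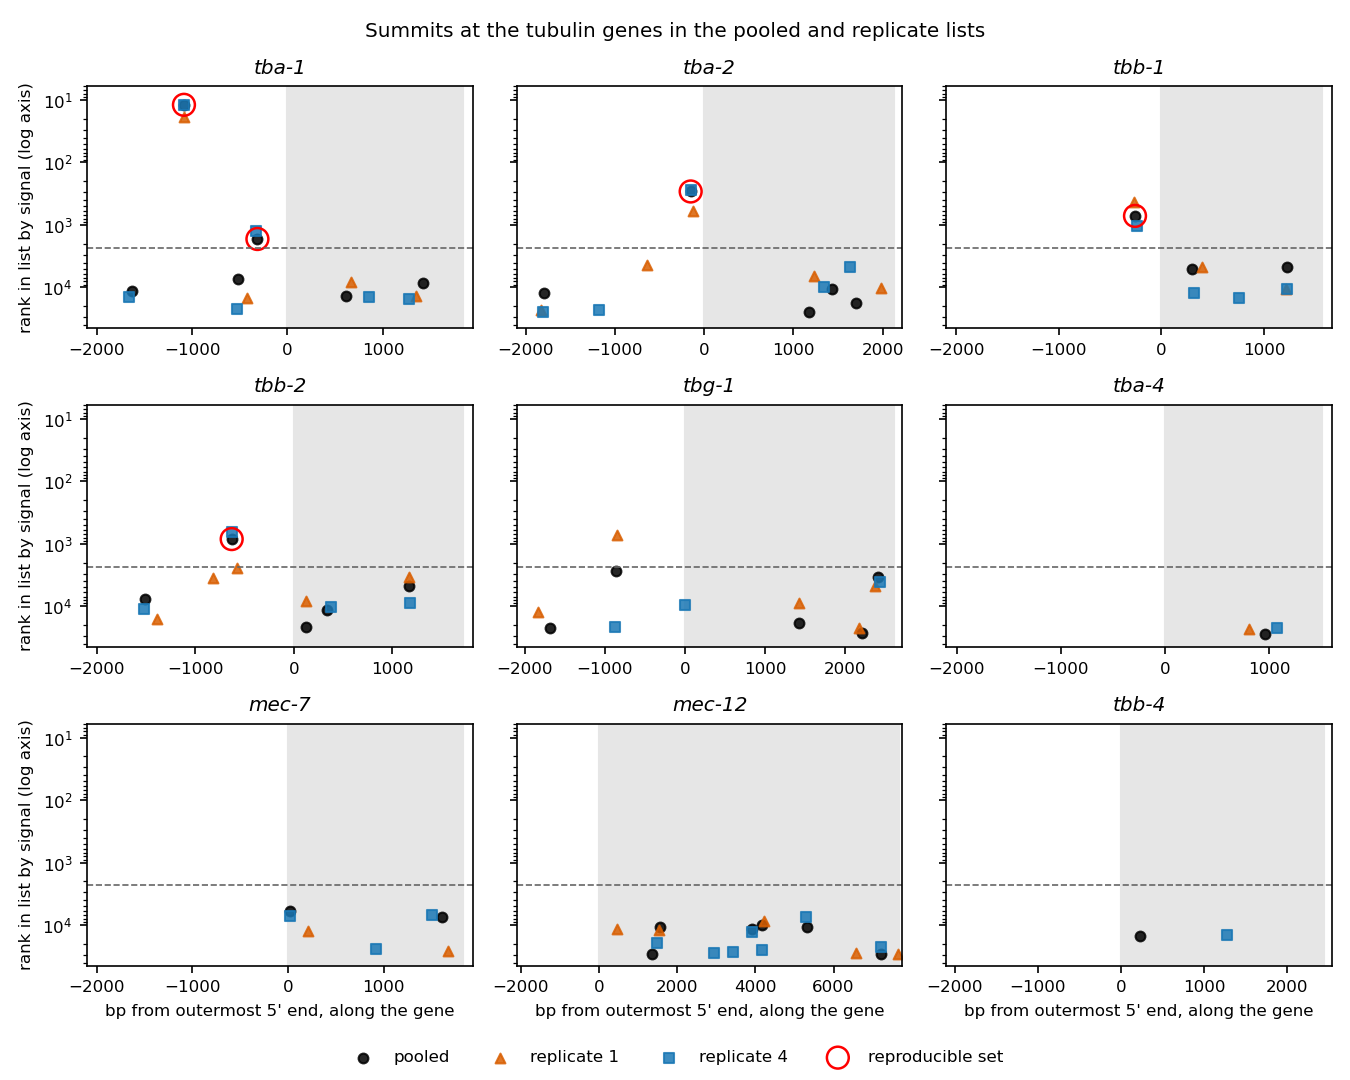
Summits in the window of each tubulin gene, by distance in bp from the outermost 5' end (horizontal) and rank by signal in the list (vertical, log axis, strongest at the top). Black circles are the pooled list, orange triangles replicate 1, blue squares replicate 4, red rings the reproducible set, grey areas the annotated gene, and the dashed line rank 2328; the 5 ringed summits lie upstream of tba-1, tba-2, tbb-1 and tbb-2, and all summits of tba-4, mec-7, mec-12 and tbb-4 lie below the line.

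Among the alpha tubulin genes, tba-2 (WBGene00006529; chromosome I, 12964674 to 12966795, minus strand) had the clearest summit of its own. The region from 12966828 to 12967007 had a pooled signal of 253 and rank 292, with its summit 151 bp upstream of the gene. In replicate 1 the matching summit had signal 70.3 and rank 595, and in replicate 4 signal 172 and rank 273. Both replicates thus placed it well inside their 2328 strongest regions, with summits 28 and 1 bp from the pooled one. No other gene had a nearer 5' end, although the proteasome subunit gene pbs-2 ends only 420 bp upstream of tba-2 on the same strand. The next strongest pooled summit in the tba-2 window had signal 45.6 and rank 10441, in coding sequence.

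The other broadly used alpha tubulin gene, tba-1 (WBGene00006528; chromosome I, 9785781 to 9787624, minus strand), had 2 reproducible summits with unequal claims to it. The stronger, in the region from 9788571 to 9788845, had a pooled signal of 636 and rank 12, and ranked 19 in replicate 1 (signal 203) and 12 in replicate 4 (signal 431). It lay 1085 bp upstream of tba-1 but only 16 bp upstream of cox-5B, a cytochrome c oxidase subunit gene that is transcribed away from tba-1. This summit falls outside the tba-1 promoter as defined here.
The weaker region, from 9787767 to 9788110, had a pooled signal of 111, rank 1681 and a summit 315 bp upstream of tba-1, the nearest 5' end, and 786 bp from cox-5B. In replicate 4 a summit 10 bp away had signal 83.9 and rank 1275. Replicate 1 had none within 100 bp, and its nearest region there, 428 bp upstream of tba-1, had signal 19.3 and rank 14520. The tba-1 promoter call therefore rested on replicate 4 and the pooled list, whereas both replicates shared the summit beside cox-5B.

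Both broadly used beta tubulin genes had a single reproducible summit each. At tbb-1 (WBGene00006536; chromosome III, 10740868 to 10742432, minus strand) the region from 10742595 to 10742742 had a pooled signal of 174 and rank 718, signal 81.2 and rank 428 in replicate 1, and signal 94.5 and rank 1050 in replicate 4. Both replicates placed it among their 2328 strongest regions. The summit lay 258 bp upstream of tbb-1 and 120 bp upstream of rib-2, a gene of heparan sulfate synthesis transcribed in the other direction, so it stood in the 377 bp between both genes and within both promoters. At tbb-2 (WBGene00006537; chromosome III, 4015910 to 4017627, minus strand) the region from 4018087 to 4018430 had a pooled signal of 159.9 and rank 843, with a summit 632 bp upstream.
In replicate 4 the tbb-2 summit had signal 119 and rank 652, with an offset of 1 bp. In replicate 1 it had signal 37.2 and rank 2491, 53 bp away and just past the 2328 strongest, with a further summit 819 bp upstream at rank 3588. No protein-coding gene had a nearer 5' end than tbb-2. The summit did lie within the noncoding RNA gene C36E8.10, on the plus strand from 4018117 to 4018305.

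Across the 5 reproducible tubulin summits, 3 were matched within 100 bp by one of the 2328 strongest regions in each replicate, namely those at tba-2, at tbb-1 and between tba-1 and cox-5B. Over all 2328 reproducible peaks the share was 60.1%. The 2 that missed it, at tba-1 and tbb-2, were both among the 2328 strongest in replicate 4. In replicate 1 the tba-1 summit had no match within 100 bp, and the tbb-2 match ranked below the 2328 strongest.

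The gamma tubulin gene tbg-1 (WBGene00006540; chromosome III, 9626536 to 9629154, minus strand) came nearest to the set without entering it, and the replicates differed. Its strongest pooled region, from 9629847 to 9630190, had signal 85.0 and rank 2691, against 91.7 for the weakest reproducible peak. In replicate 1 the matching summit had signal 64.4 and rank 726, whereas in replicate 4 it had signal 22.7 and rank 21579. The summit lay 865 bp upstream of tbg-1 and 134 bp upstream of rpac-19, which encodes a subunit shared by RNA polymerases I and III. The genes rpac-19 and tbg-1 lie on the same strand with 91 bp between them, and ubc-7, a ubiquitin-conjugating enzyme gene, ends 211 bp upstream of rpac-19. A second tbg-1 region lay in coding sequence 2414 bp from the 5' end, with pooled signal 74.4 (rank 3465), replicate 1 signal 28.6 (rank 4835) and replicate 4 signal 47.6 (rank 4140). It was outside the 2328 strongest regions in all 3 lists.

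The touch-neuron genes had weak regions only. At mec-7 (WBGene00003171; chromosome X, 7774856 to 7776689, minus strand) the strongest pooled summit had signal 58.1 and rank 5887 and lay in 5' untranslated sequence, 17 bp from the 5' end. Replicate 4 had a summit 1 bp from it, with signal 37.8 and rank 7276. Replicate 1 had none within 100 bp, and its strongest mec-7 region was intronic, with signal 20.4 and rank 12426. At mec-12 (WBGene00003175; chromosome III, 3131574 to 3139234, minus strand) the strongest pooled summit had signal 46.5 and rank 9960, in coding sequence 4170 bp from the 5' end. Its replicate summits there ranked 8482 in replicate 1 (signal 23.5) and 25154 in replicate 4 (signal 20.6). All 6 pooled summits of mec-12 lay inside the gene.

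The ciliated-neuron gene tbb-4 (WBGene00006538; chromosome X, 9434452 to 9436893, minus strand) had a single pooled summit, intronic, with signal 38.6 and rank 15100. Replicate 1 had no region in the tbb-4 window, and the only region of replicate 4 lay elsewhere, in coding sequence 1274 bp from the 5' end (signal 28.2, rank 14442). The alpha tubulin gene tba-4 (WBGene00006530; chromosome II, 10918706 to 10920211, plus strand) was lowest of the 9 in the pooled list, with signal 26.9 and rank 28101 in coding sequence. Its only regions in the replicates ranked 22991 in replicate 1 (signal 15.7) and 22197 in replicate 4 (signal 22.3). Neither gene had any region upstream of its 5' end within 2000 bp, in any list.

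Beside all genes, the order of the tubulin genes depended on which summits were counted as theirs. Of the broadly used class, which includes tbg-1, several windows owe their strongest summit to one nearer another gene, namely cox-5B for tba-1, rib-2 for tbb-1 and, in replicate 1, rpac-19 for tbg-1. Taking every summit in the window, 99.8% of genes in replicate 1 had a weaker strongest summit than tba-1 through the summit beside cox-5B, 96.9% than tbb-1, 95.9% than tba-2, 95.1% than tbg-1 and 86.6% than tbb-2. In replicate 4 the shares were 99.9% for tba-1, 98.2% for tba-2, 95.9% for tbb-2, 93.6% for tbb-1 and 80.7% for tbg-1. Below tba-1 the order within these 5 genes changed between replicates, so it was not resolved.
The neuronal genes reached 67.4% for mec-12 and 57.3% for mec-7 in replicate 1, and 71.1% and 72.6% in replicate 4. The gene tba-4 stood at 38.2% in replicate 1 and 43.5% in replicate 4. For tbb-4, without a region in replicate 1, the share in replicate 4 was 55.0%. By this measure the lowest of the 5 broadly used genes lay above the highest of the 3 neuronal ones in each replicate. The gene tba-4, kept apart because its use is wider than neurons, lay below both mec-7 and mec-12 in each replicate. In replicate 4 it also lay below tbb-4. Counted as broadly used, tba-4 would end this separation in both replicates.
With each summit given only to the gene with the nearest 5' end, an alternative added after the data were seen, the classes nearly met in replicate 1 and overlapped in replicate 4. In replicate 1 the share was then 76.8% for tba-1 (signal 24.0, rank 8049, in coding sequence), close to 75.9% for mec-12. In replicate 4 it was 68.7% for tbb-1 (signal 30.4, rank 12311, in coding sequence), below 80.0% for mec-7. The genes tba-2 (97.6% and 98.9%), tbb-2 (91.1% and 97.4%) and tbg-1 (84.6% and 86.6%) stayed above all 3 neuronal genes in both replicates. So did tba-1, narrowly in replicate 1 and with 95.2% in replicate 4. Of the 5 broadly used genes only tbb-1 fell below a neuronal gene, and only in replicate 4. No test was made between these classes, since genes are not replicates and the classes hold 5 and 3 genes. In whole animals, binding in few cells and weak binding in many cells cannot be told apart.

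**Figure D2:**
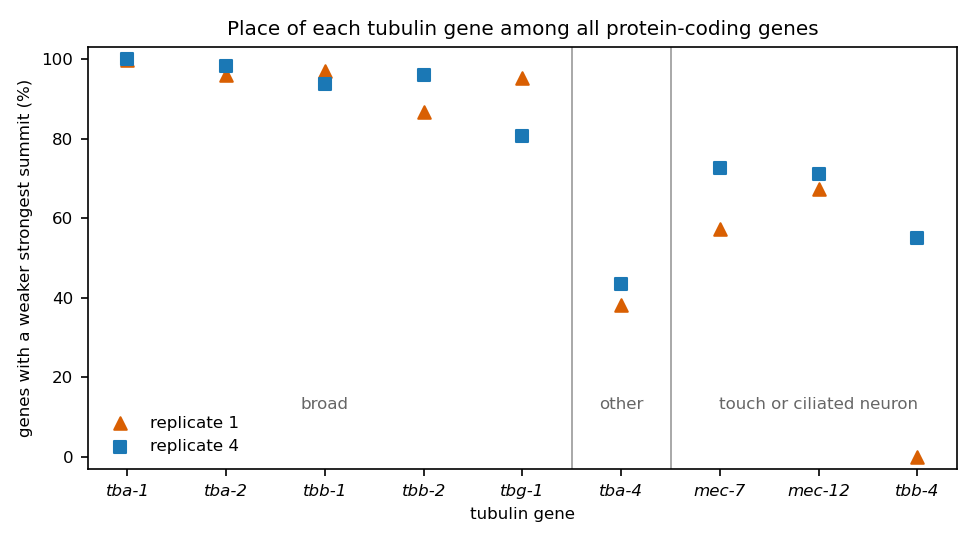
Share of all 19973 protein-coding genes, in percent, whose strongest summit was weaker than that of each tubulin gene, for replicate 1 (orange triangles) and replicate 4 (blue squares). All summits of a window are counted, whichever gene is nearest. The broadly used genes lie at 80.7% and above, and the touch-neuron and ciliated-neuron genes at 72.6% and below. The gene tba-4, in neither class, lies at 38.2% in replicate 1 and 43.5% in replicate 4. For tbb-4 the replicate 1 value is drawn at 0, as it had no region there.

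Any region at all was a weak criterion in these capped lists. All 9 tubulin genes had a pooled summit in the window, as did 63.8% of all genes. In replicate 1, 8 of 9 had one (all but tbb-4), against 70.1% of all genes, and in replicate 4 all 9, against 64.4%. Taking the 2328 strongest regions of each replicate instead, 4 tubulin genes were called in the gene window in replicate 1, where the background was 12.8%, and 4 in replicate 4, where it was 12.3%. The lists of names differed, with tbg-1 in replicate 1 and tbb-2 in replicate 4 beside tba-1, tba-2 and tbb-1 in both, tba-1 in replicate 1 only through the summit beside cox-5B.
In the promoter, replicate 1 called 3 (tba-2, tbb-1 and tbg-1; background 8.46%) and replicate 4 called 4 (background 8.07%).
When each summit was given only to the protein-coding gene with the nearest 5' end, 3 tubulin genes stayed called (tba-1, tba-2 and tbb-2), against 8.36% of all genes in the gene window and 6.28% in the promoter. The tbb-1 summit then went to rib-2.

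**Figure D3:**
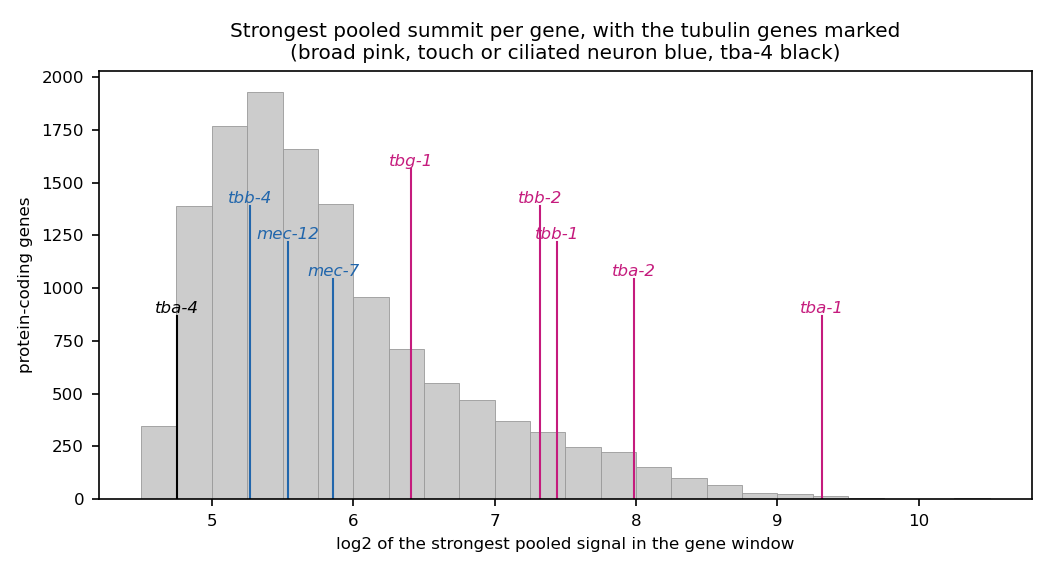
Number of protein-coding genes (vertical) by the log2 of the strongest pooled signal in the gene window (horizontal), for the 12735 genes with any pooled region, with the tubulin genes as labelled lines. The broadly used genes (pink) lie to the right of the touch-neuron and ciliated-neuron genes (blue) and tba-4 (black); the lines of tba-1, tbb-1 and tbg-1 are summits nearer to cox-5B, rib-2 and rpac-19.

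The AAGTG core was found within 50 bp of 2 of the 5 reproducible tubulin summits, searching both strands, against 27.1% of all reproducible summits. The matches were centred 27 bp from the tbb-1 summit, as seen in the sequence shown for tbb-1, and 36 bp from the weaker tba-1 summit. Within 100 bp no further tubulin summit had a match, against 44.1% of all summits. Within 25 bp none of the 5 had one, against 15.2%. In the 250 bp upstream of the outermost 5' end, 3 of the 9 genes held the core (tba-4, tbb-1 and mec-7), against 44.6% of all protein-coding genes. Of these, only tbb-1 had a reproducible summit, and its upstream match, centred 128 bp from the 5' end, is a different one from that at the summit, centred 285 bp from it.

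The sequence of the peaks was distinct between the genes. All 31-mers of the 5 reproducible regions and of the tbg-1 region occurred once in the genome. In coding exons, where tubulin genes resemble each other, the unique share ran from 86.1% at tba-4 to 100% at tbb-4, mec-12 and tbg-1. How the authors treated reads that match several places is not stated in those sources that were used.

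The remaining tubulin genes and the machinery around microtubules were examined as lists, which were not matched for window length. The other tubulin genes had a median window of 5470 bp, against 3844 bp for the 9 followed here. None of 7 other tubulin genes had a reproducible summit in its promoter, against 8.46% of all genes, and 2 of 7 had one in the gene window, both intronic, against 12.6%. At the alpha tubulin gene tba-7 this summit lay 326 bp inside the gene with a pooled signal of 192 and rank 583, and the strongest regions of its window ranked 956 in replicate 1 and 500 in replicate 4. At ben-1, the beta tubulin gene known as the target of benzimidazole drugs, it lay 1021 bp inside with a pooled signal of 108 and rank 1761, and the window's strongest regions ranked 891 in replicate 1 and 3232 in replicate 4. The gene tba-9 had a pooled signal of 55.2 at most (rank 6624). The genes tba-5 and tba-8 had a region in 1 replicate only (rank 12658 in replicate 1 and rank 6621 in replicate 4), and tba-6 and tbb-6 had none in any list.

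The promoter counts of the microtubule lists are read beside the 8.46% of all genes. Of 11 genes of the gamma tubulin complex and centrosome, 4 had a reproducible promoter summit. They were sas-4, a centriole assembly gene (signal 339, 704 bp upstream, nearer to F10E9.11), spd-5, a scaffold of the pericentriolar material (211, 220 bp downstream of the nearest 5' end and upstream of another), the centriole kinase gene zyg-1 (161, 138 bp upstream) and the centriole assembly gene sas-5 (145, 55 bp upstream). This was 36.4% of the list. The gamma tubulin complex genes gip-1, gip-2 and mzt-1 were not among them.
Of 24 motor genes 5 (20.8%) were called, led by the kinesin light chain gene klc-1 (signal 277, 675 bp upstream), the dynein light chain gene dlc-1 (274, 648 bp upstream), the kinesin gene klp-13 (263, 216 bp upstream) and the spindle kinesin gene klp-18 (137, 586 bp upstream, nearer to cogc-2).
Of 19 genes for microtubule-associated and severing proteins 3 (15.8%) were called, namely cls-2, of the CLASP family (signal 329.7, 987 bp upstream, nearer to R107.5), the severing enzyme gene spas-1 (143, 383 bp upstream) and maph-1.1, related to MAP1 (132, 693 bp upstream).
Of 15 genes of tubulin folding and processing 2 (13.3%) were called. They were coel-1, related to tubulin cofactor E (signal 137), and ttll-4, a glutamylase gene (130.2, 355 bp upstream). The coel-1 summit lay 73 bp upstream of the nearest 5' end but within annotated 5' untranslated sequence of the gene.

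None of 15 touch receptor neuron genes had a reproducible promoter summit, and 1 of 27 cilium genes (3.70%) had one, namely daf-19, which encodes the RFX factor of ciliated neurons (signal 149.5, 240 bp upstream). In the daf-19 window the strongest region ranked 8720 in replicate 1 and 667 in replicate 4. Within the gene window 1 of 15 touch receptor neuron genes (6.67%) and 2 of 27 cilium genes (7.41%) were called, against 12.6% of all genes. These were mec-17, the alpha tubulin acetyltransferase gene (signal 93.2, in coding sequence 607 bp from the 5' end), and, beside daf-19, che-13, an intraflagellar transport gene. The che-13 window held a summit of signal 674 and rank 10, which lay 1644 bp upstream of che-13 and 802 bp from F59C6.18, whose 5' end was nearest. The strongest region of that window ranked 17 in replicate 1 and 9 in replicate 4. Both mec-17 and che-13 were named after their values were seen. With so few genes these shares, and the 0 of 3 neuronal tubulin genes, cannot be set apart from the background, and no test was made between lists. Median windows were 5597 bp in the touch receptor neuron list and 7028 bp in the cilium list, so shares by gene window are not matched for length.

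**Figure D4:**
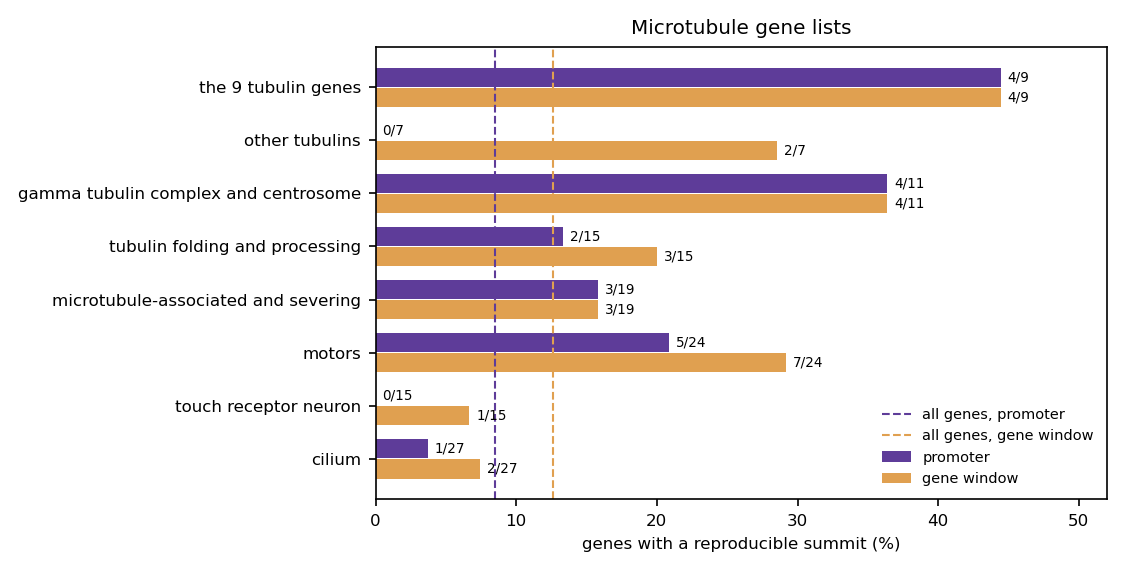
Share of the genes in each list, in percent, with a reproducible summit in the promoter (purple bars) or the gene window (orange bars), with the counts beside the bars. Dashed lines give the share of all protein-coding genes (8.46% and 12.6%). The bars of the touch receptor neuron and cilium lists end below these lines, as does the promoter bar of the other tubulins. Both bars of the 9 tubulin genes (4 of 9) end above them, as do those of the centrosome, folding, microtubule-associated and motor lists. Each list holds few genes, the lists were not matched for window length, and no test was made between them.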

How the data were processed

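The authors deposited 4 region lists on build ce11, per the descriptions beside the sample files, namely 1 for each replicate, 1 pooled and a reproducible set thresholded by irreproducible discovery rate, all made with a control that was not analysed here. The deposited signal value of each region has no stated scale, and was used only to rank regions within a list. The deposited −log10 q values were not used for ranking, since they share a ceiling and do not fall strictly with signal. No aligner, region caller or threshold value is given in the sources used here. Depth is unknown, and no interval that needs it was given.

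Genes came from Ensembl release 115 (WBcel235, the same assembly), with 5' ends from protein-coding transcripts, and sequence from the RefSeq copy. A gene was called by a summit in its window or promoter, and backgrounds cover 19973 nuclear protein-coding genes. Replicate summits within 100 bp of each other were matched. Named genes were all members, the other tubulin genes, the gene nearest to each summit, and at most 4 genes by signal in each list with a promoter summit; gip-1, gip-2, mzt-1, mec-17 and che-13 were added after seeing values. Members and lists were chosen with earlier results of these data known, so no list was tested. Window and distance rules were tested on planted summits. Python 3.11.15, numpy 2.4.6, pandas 2.3.3 and matplotlib 3.10.9 were used. Alternatives varied windows, overlap, set size, single replicates, matching distance and motif window; assignment to the nearest 5' end, the larger pooled set, the strongest summit by nearest 5' end and the settings applied to isotype classes were added after seeing the data.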

Additional observations from a re-analysis of the deposited data

How the results depend on the processing

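The count of 4 tubulin genes in the gene window ran from 3 to 5 over the 8 alternatives, and that in the promoter from 3 to 5. At 500 bp upstream tbb-2 dropped out of both counts, leaving 3. Among the 1164 strongest reproducible regions tba-1 was called in the window through the summit beside cox-5B and was lost from the promoter, leaving 3. With pooled regions taken down to 3492, 1.5 times the set, tbg-1 joined and both counts were 5. For the changed upstream edges, overlap rule and set sizes no share of all genes is given. Those counts therefore cannot be read against a background. Leaving out a replicate gave 4 and 4 in the window and 3 to 4 in the promoter. None of the 3 touch-neuron and ciliated-neuron genes was called under any of these alternatives (0 of 3 throughout), and of the broadly used genes 3 to 5 of 5 were. By the share of all genes with a weaker strongest summit, the lowest broadly used gene lay 19.2 percentage points above the highest neuronal one in replicate 1. In replicate 4 it lay 8.06 above. These differences leave out tba-4, which was in neither class and lay below mec-7 and mec-12 in both replicates. With summits given only to the nearest 5' end these differences were 0.976 and -11.3. The summits beside cox-5B and rib-2 then no longer counted for tba-1 and tbb-1. The negative value in replicate 4 came from tbb-1 alone (68.7%, against 80.0% for mec-7). The other broadly used genes stayed above mec-7 there. The 3 summits strong in both replicates stayed 3 at 50 and 200 bp and were 2 under 50% reciprocal overlap. The share of all reproducible peaks was taken at 100 bp only, so these changed counts have no background beside them. The AAGTG count of 2 was 2 at 100 bp and 0 at 25 bp on each side of the summit, the latter because both matches are centred more than 25 bp away. No paired analysis was possible because the 2 replicates form 1 group. The unknown depth and the capped lists limit what the absence of a region shows.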

Other observations

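Weak regions inside the tubulin genes lay mostly in coding sequence. Of 34 pooled summits in the 9 windows, 19 (55.9%) were coding, although coding sequence made up 29.2% of the windows' length. Over the windows of all protein-coding genes 32.2% of pooled summits were coding, with 23.7% of the length. None of the 19 was reproducible, and their pooled signals ran from 26.4 to 74.4, with a best rank of 3465. Coding summits with a summit within 100 bp in both replicates were found at tbb-1 (2), mec-12 (2), tbb-2 (1), mec-7 (1) and tbg-1 (1). That of tbg-1 had the highest pooled signal of the 19. Some of the matches lay low in the capped lists, with rank 26048 for mec-7 in replicate 1 and ranks 25154 and 19518 for mec-12 in replicate 4. The later coding summit of tbb-1 lay 1223 bp from the 5' end in the pooled list (rank 4649), 1217 bp in replicate 1 (rank 10614) and 1228 bp in replicate 4 (rank 10756). That of tbb-2 lay 1171 bp from the 5' end in the pooled list (rank 4750), 1169 bp in replicate 1 (rank 3407) and 1174 bp in replicate 4 (rank 8951). All 31-mers of both regions were unique in the genome. Of the 19 coding summits 7 had a summit within 100 bp in both replicates, against 17.5% of all pooled coding summits. These sets were not matched for signal. The 19 had a median pooled signal of 45.3, against 38.7 over the whole pooled list, and the part of signal in this count was not tested. The G and C content around the 19 had a median of 51.5%, against 46.5% around all pooled coding summits, and its part in these counts was not tested.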
